A study of Mus musculus with 12 samples.

Results

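Untreated mouse embryonic stem (ES) cells of a line that carries a doxycycline (dox) inducible Tcf15-E47 construct were compared with untreated cells of their parental line. No inducer had been added to either, so the comparison gives the baseline difference between the lines. It covered every probe of the value table that the platform annotation names with 1 gene on an autosome, 30884 of 38561 probes, which read 17763 autosomal genes. Of these genes, 8251 passed a detection filter (detection p under 0.01 on at least 2 of the 12 arrays) and were tested. The compared groups were Tcf15-E47 cells at 0 h of dox and parental cells at 0 h of dox, with 2 Illumina BeadChip arrays each. Each difference was then read again between the same lines after 8 h of dox, in 2 arrays of Tcf15-E47 cells and 2 arrays of parental cells that the 0 h comparison did not use. Per the labels, both lines are of the 129/P2 E14tg2a strain and were grown in GMEM with LIF and fetal calf serum (FCS), and dox was given at 1 µg/mL. The labels do not say whether the Tcf15-E47 line is 1 clone or whether replicates came from separate cultures, so p-values here measure only the spread between arrays. All differences are log2 values of Tcf15-E47 cells minus parental cells on the scale the authors deposited, where a log2 difference of 1 is 2-fold. As that scale keeps the background signal, it understates the differences of dim genes.

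Tcf15 belongs to the basic helix-loop-helix (bHLH) transcription factors and pairs with E proteins such as E47, a product of the Tcf3 gene, to bind E-box sequences in DNA. Id proteins also pair with E proteins but cannot bind DNA, and so hold them inactive. In ES cells, Tcf15 is known as a factor of cells that are leaving the naive state towards the epiblast, a step that FGF signalling promotes and that LIF opposes. A comparison of the lines without inducer shows which genes already differ before the construct is switched on.

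All 9 ES cell markers with an autosomal probe (Pou5f1, Sox2, Zfp42 and others) were detected on all 12 arrays. Among 15 fibroblast and feeder markers, 6 were detected on both untreated Tcf15-E47 arrays and 5 on both untreated parental arrays. Col1a1, Col1a2, Col3a1, Lum, Postn, Tagln, Pdgfrb and S100a4 were detected on no 0 h array. The others, Col5a1, Dcn, Thy1, Acta2, Fbln1, Loxl1 and Timp3, were detected on at least 1. The summed signal of the list, not normalized and with its background, was 2029 and 1753 in Tcf15-E47 cells, against 2042 and 1888 in parental cells. The same sum was 2007 and 1911 in Tcf15-E47 cells at 8 h of dox, against 1907 and 4313 in parental cells at 8 h. Replicate 2 of the parental cells at 8 h therefore stood apart, and its Acta2, a smooth muscle and myofibroblast actin, lay 4.16 log2 units above replicate 1. Some named genes called at 8 h were not called without that array. Any fit with 1 array left out has 1 array in that group. Calls lost in such a fit therefore do not show that the array carried the difference. Between the parental replicates at 0 h, 7 genes lay over 0.6 log2 units apart, with Hmgb2 at 0.968, and no gene lay so far apart between the Tcf15-E47 replicates at 0 h. Across arrays, 30.7% to 34.7% of probes were detected.

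The construct's own genes did not pass the test between the untreated lines. Tcf15 read 10.05 and 10.07 in Tcf15-E47 cells, against 10.23 and 10.19 in parental cells, a log2 difference of -0.15 (limma adjusted p = 0.198). Tcf3 read 6.77 and 6.81 in Tcf15-E47 cells, against 6.83 and 6.67 in parental cells, a difference of 0.04 (limma adjusted p = 0.838). After 8 h of dox, Tcf3 was 0.51 log2 units higher in Tcf15-E47 cells (limma adjusted p = 0.00372, and 0.0571 without replicate 2 of the parental cells at 8 h), while Tcf15 differed by 0.0047 (limma adjusted p = 0.983). Whether either probe lies in the part of the gene that the construct carries is not given in the sources used here.

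Plac8, which encodes a small cysteine-rich protein first known from placenta, was the gene with the largest difference of all. It read 8.93 and 8.92 in Tcf15-E47 cells, against 7.95 and 7.85 in parental cells. The groups did not overlap, and the difference was 1.02 ± 0.0746 (SE), or 2.03-fold (limma adjusted p = 4.55e-06). After 8 h of dox it was 0.92 (limma adjusted p = 9.83e-06). With 12 and 24 h of dox, the Tcf15-E47 arrays read 8.42 to 8.60 and so stayed above every parental array, the highest of which was 7.95.

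Id2, an Id protein that inhibits E proteins, was also higher in Tcf15-E47 cells without inducer. It read 8.87 and 8.69 in Tcf15-E47 cells, against 8.16 and 8.33 in parental cells, a difference of 0.54 ± 0.0852 (SE; limma adjusted p = 0.00191). After 8 h of dox the difference was 0.79 (limma adjusted p = 0.000107). The lowest of the 8 Tcf15-E47 arrays at any time, 8.69, lay above the highest of the 4 parental arrays, 8.33. Its other 2 kept probes gave smaller differences of 0.21 and 0.26 at 0 h. Id1 and Id3, the closest relatives of Id2, did not pass the test at 0 h, with differences of 0.05 and -0.05 (limma adjusted p = 0.813 and 0.69).

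Wnt7b, a secreted WNT ligand, and Fgf5, an FGF ligand that marks the formative epiblast, were lower in Tcf15-E47 cells. Wnt7b read 6.79 and 6.67 in Tcf15-E47 cells, against 7.37 and 7.32 in parental cells, and the groups did not overlap. The difference was -0.62 ± 0.0768 (SE; limma adjusted p = 0.000376) at 0 h and -0.50 (limma adjusted p = 0.00171) at 8 h. Its probe was detected on 1 of the 2 untreated Tcf15-E47 arrays and on both parental arrays. Fgf5 read 6.77 and 6.72 in Tcf15-E47 cells, against 7.10 and 7.09 in parental cells, a difference of -0.35 ± 0.0653 (SE; limma adjusted p = 0.00539). At 8 h the Fgf5 difference was -0.22 and did not pass the test (limma adjusted p = 0.0639), and without replicate 2 of the untreated Tcf15-E47 cells the 0 h difference just missed it (limma adjusted p = 0.0509). By 24 h of dox, Fgf5 in Tcf15-E47 cells read 6.97 and 7.11 and overlapped the parental arrays, which read 6.97 to 7.10 over both times. Both genes are dim, and with the background subtracted (neqc) their 0 h differences were -1.51 for Wnt7b and -0.95 for Fgf5.

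**Figure D1:**
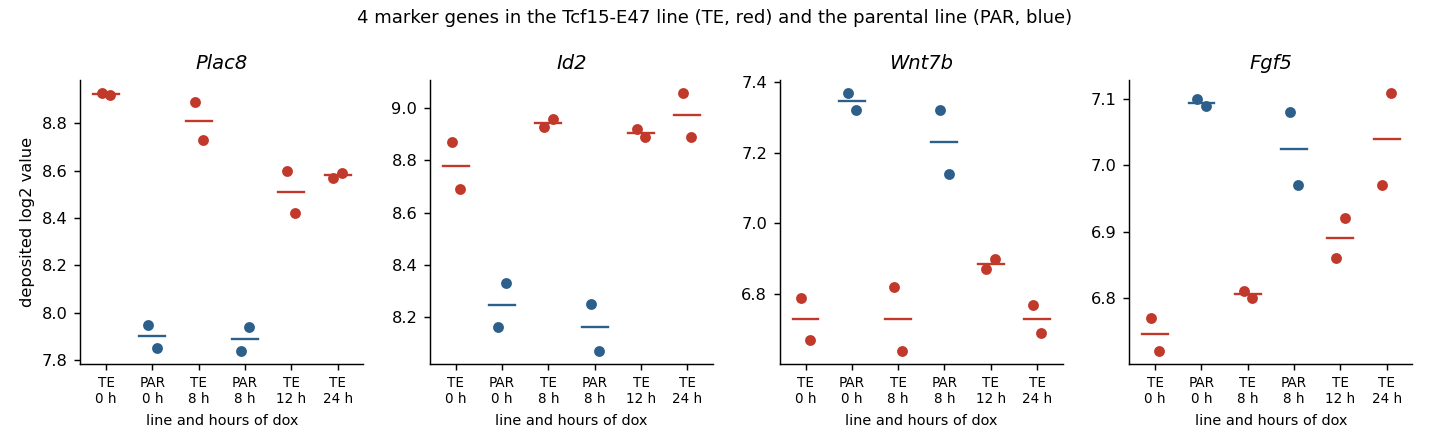
Deposited log2 values of Plac8, Id2, Wnt7b and Fgf5 (vertical axes, which do not start at 0) on every array, for Tcf15-E47 cells (TE, red) and parental cells (PAR, blue) by hours of dox. Points are arrays and lines are means of 2 arrays. Plac8 and Id2 are higher and Wnt7b is lower on all 8 Tcf15-E47 arrays than on all 4 parental arrays, whereas Fgf5 at 24 h overlaps the parental values.

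The start regions of 3 genes that were higher at both times, from RefSeq (GRCm38.p6), are shown because bHLH pairs of the Tcf15 kind bind E-boxes. Each runs from 250 bases before to 50 bases after the annotated start, on the minus strand, at chr5:100572156-100572455 for Plac8, chr12:25096043-25096342 for Id2 and chr7:143502475-143502774 for Phlda2. Capitals mark 2 E-boxes. One is CAGCTG, which reads alike on both strands. The other is CACCTG, or its reverse complement CAGGTG where it lies on the other strand.

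Plac8: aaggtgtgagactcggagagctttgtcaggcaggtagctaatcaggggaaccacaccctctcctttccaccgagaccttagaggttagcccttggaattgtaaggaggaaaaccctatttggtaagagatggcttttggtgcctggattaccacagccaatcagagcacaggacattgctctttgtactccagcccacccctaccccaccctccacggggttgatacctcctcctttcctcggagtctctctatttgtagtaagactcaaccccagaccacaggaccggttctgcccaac

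Id2: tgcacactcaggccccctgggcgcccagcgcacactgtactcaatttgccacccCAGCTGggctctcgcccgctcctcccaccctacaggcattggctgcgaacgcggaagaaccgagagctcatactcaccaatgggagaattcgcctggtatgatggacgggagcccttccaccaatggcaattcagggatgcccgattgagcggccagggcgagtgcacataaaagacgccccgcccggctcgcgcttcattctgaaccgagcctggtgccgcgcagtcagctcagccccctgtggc

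Phlda2: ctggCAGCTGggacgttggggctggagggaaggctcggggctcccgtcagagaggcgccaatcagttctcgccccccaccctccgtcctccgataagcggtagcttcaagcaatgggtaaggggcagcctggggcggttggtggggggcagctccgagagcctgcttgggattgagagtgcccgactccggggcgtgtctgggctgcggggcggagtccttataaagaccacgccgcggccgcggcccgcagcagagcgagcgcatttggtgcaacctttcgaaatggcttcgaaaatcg

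The window of Plac8 holds none of these letters, and those of Id2 and Phlda2 hold 1 CAGCTG each. Such a match was found in 34.0% of the 94 genes that were higher in Tcf15-E47 cells at both times and have a promoter in the table, in 26.5% of the 136 that were lower at both times, and in 28.9% of the 6747 tested genes with a promoter. A match is a run of letters and no measured binding site.

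Across the autosomes, 281 of the 8251 genes tested (3.41%) were higher and 403 (4.88%) were lower in untreated Tcf15-E47 cells than in untreated parental cells, at a limma adjusted p under 0.05. Differences were small, with a median size of 0.31 log2 units among the 684 called genes, 12 genes at or above 0.5, 31 at or below -0.5, and only Plac8 at 2-fold or more. The arrays of both groups did not overlap for any of the 684, but 49.3% of all tested genes also showed no overlap. Without replicate 1 of the untreated Tcf15-E47 cells, 88 higher and 151 lower genes were called; without their replicate 2, 100 and 140; and without replicate 2 of the untreated parental cells, 145 and 246. The share of called genes that were higher was 41.1%, but 71.8% when background-corrected signals were scaled to 1 median, which shifted the median of all genes by 0.0925; all 684 called genes kept their direction there. Under that scaling 125 higher and 49 lower genes were called. Of 76 named genes called at 0 h, 35 lost their call there and 20 lost it with the background subtracted (neqc). Among genes named below, median scaling lost the calls of Klf4, Klf5, Tbx3, Zfp296, Dppa4, Dusp4, Dusp6, Phlda1, Spred1, Ier3 and Dusp1. It also lost those of Col4a1, Amn, Ifitm1, Ifitm3, Gbp2, Pgm1, Zyx, Pbk, Chmp7, Dad1 and Peg3. Those of Zfp296, Dppa4, Dusp6, Spred1, Dusp1, Ifitm1 and Ifitm3 were lost with neqc too.

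The genes with the largest rise after Plac8 came from varied roles. Krt10, a keratin of differentiating epidermis, read 8.07 and 8.04 in Tcf15-E47 cells, against 7.42 and 7.48 in parental cells, a difference of 0.61 (limma adjusted p = 6.39e-05). Phlda2, an imprinted gene that limits placental growth, read 11.47 and 11.44 in Tcf15-E47 cells, against 10.77 and 10.94 in parental cells, a difference of 0.60 (limma adjusted p = 0.000464). Neither gene's groups overlapped. Trh, the precursor of thyrotropin-releasing hormone, rose by 0.56 and Qprt, an enzyme of NAD synthesis, by 0.55. Cox6c, a subunit of cytochrome c oxidase, rose by 0.59 and Nme3, a nucleoside diphosphate kinase, by 0.54. Pcolce2, an enhancer of procollagen processing, rose by 0.53 and Mt3, a metallothionein, by 0.51. The other kept probe of Pcolce2 differed by only 0.20. Cbr1, a carbonyl reductase, rose by 0.51, and its call was lost without replicate 1 of the untreated Tcf15-E47 cells (limma adjusted p = 0.0766), as that of Mt3 was without replicate 2 of either untreated line. The call of 2410006H16Rik was lost without either Tcf15-E47 replicate and without replicate 1 of the parental cells. Of the 15 largest rises, which also include Grcc10, 2410006H16Rik, Rab26os and 1110038B12Rik, all 15 were positive at 8 h and 10 were called there. Without replicate 2 of the parental cells at 8 h, 14 were positive and 6 were called; 2410006H16Rik differed by -0.0142, and the 8 h calls of Cox6c, Nme3, Mt3 and Rab26os were lost.

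The largest falls included a transporter, transcription factors and adhesion proteins. Slc40a1, the iron exporter ferroportin, read 8.13 and 8.24 in Tcf15-E47 cells, against 9.11 and 9.01 in parental cells. Its difference was -0.88 ± 0.0756 (SE; limma adjusted p = 2.91e-05), and -0.76 at 8 h (limma adjusted p = 5.03e-05). Aard read 9.87 and 9.85 in Tcf15-E47 cells, against 10.59 and 10.78 in parental cells, a difference of -0.82 (limma adjusted p = 4.26e-05). The groups were apart by more than either group's spread in both genes. Prrc1 fell by 0.76 and Ccdc3 by 0.70 on the log2 scale. Fabp3, a fatty acid carrier, fell by 0.65, Lrp2, the endocytic receptor megalin, by 0.65, and Anxa3, an annexin, by 0.64. Tfap2c, a transcription factor of trophoblast and germ cells, read 9.10 and 9.17 in Tcf15-E47 cells, against 9.74 and 9.80 in parental cells, a difference of -0.64 (limma adjusted p = 0.000165). Pgm1, a phosphoglucomutase, fell by 0.61, as did Wfdc2, of the whey acidic protein family. Other kept probes differed by less, at -0.36 and -0.15 for Tfap2c and -0.22 for Pgm1. Adam23, a cell surface disintegrin, fell by 0.60 and Zyx, the focal adhesion protein zyxin, by 0.60. Of the 15 largest falls, which also include Wnt7b, Fbxw7 and Klf5, all 15 were negative at 8 h and 14 were called there, or 13 without replicate 2 of the parental cells at 8 h. The exception with all arrays was Fbxw7, a substrate receptor of a ubiquitin ligase, whose parental arrays at 0 h read 7.55 and 8.02 and whose other probe differed by -0.027.

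**Figure D2:**
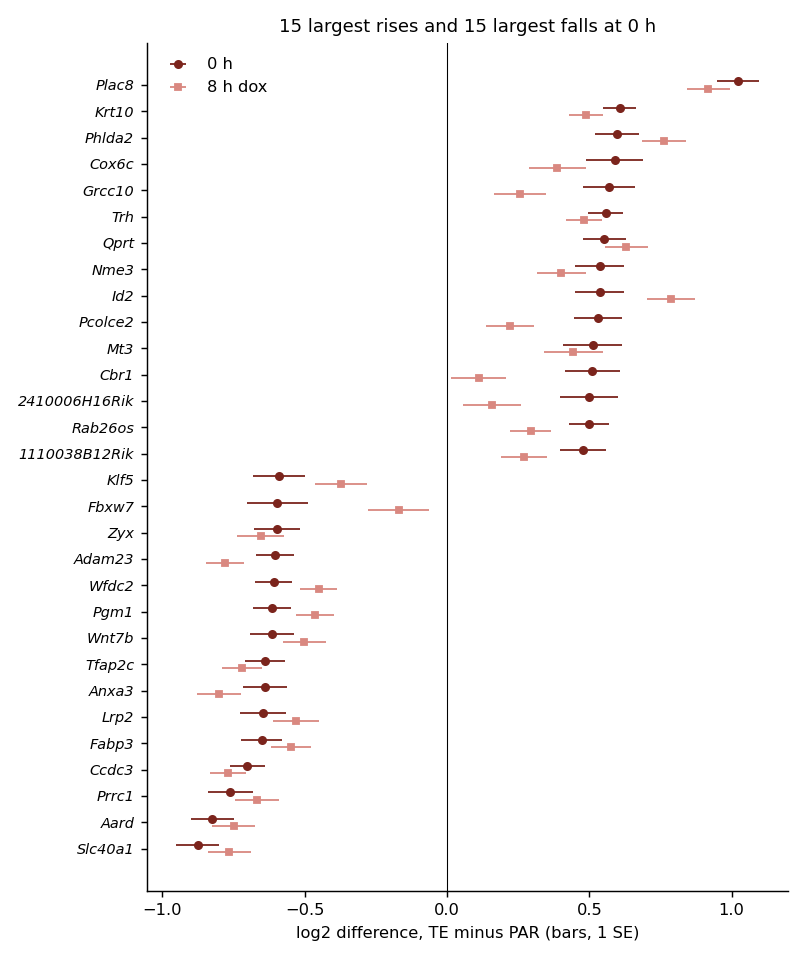
Log2 difference of Tcf15-E47 minus parental cells (horizontal axis) for the 15 largest rises and 15 largest falls at 0 h (dark circles), with the same genes after 8 h of dox (light squares). Bars are 1 SE from the limma fit. All 30 genes keep their side of 0 at 8 h, where Fbxw7 lies at -0.17 and Cbr1 at 0.11, although 2410006H16Rik does not without 1 parental array.

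The 8 h arrays served as a second reading of the lines, although dox had been added by then. Between the lines at 8 h, 217 genes (2.63%) were higher and 294 (3.56%) lower in Tcf15-E47 cells, 6.19% of tested genes in all. With any 1 of these 4 arrays left out, 35 to 92 were higher and 83 to 140 lower, the fewest (35 and 83) without replicate 2 of the parental cells. Of the 281 genes higher at 0 h, 265 were positive at 8 h and 108 were called there. Of the 403 genes lower at 0 h, 395 were negative at 8 h and 178 were called there. The same sign was thus found for 96.5% of called genes, beside 70.3% of all 8251 genes. Across genes, the 0 h and 8 h differences correlated at r = 0.675 (n = 8251 genes, which are not independent). Without replicate 2 of the parental cells at 8 h, 616 genes were called at 0 h, of which 95.3% had the same sign at 8 h and 91 were also called there. On all 8 Tcf15-E47 arrays, 366 of the 684 called genes (53.5%) lay beyond all 4 parental arrays, beside 10.4% of all tested genes. That share was in part fixed by the choice of genes. All 684 already showed no overlap on the untreated arrays, beside 49.3% of all tested genes.

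**Figure D3:**
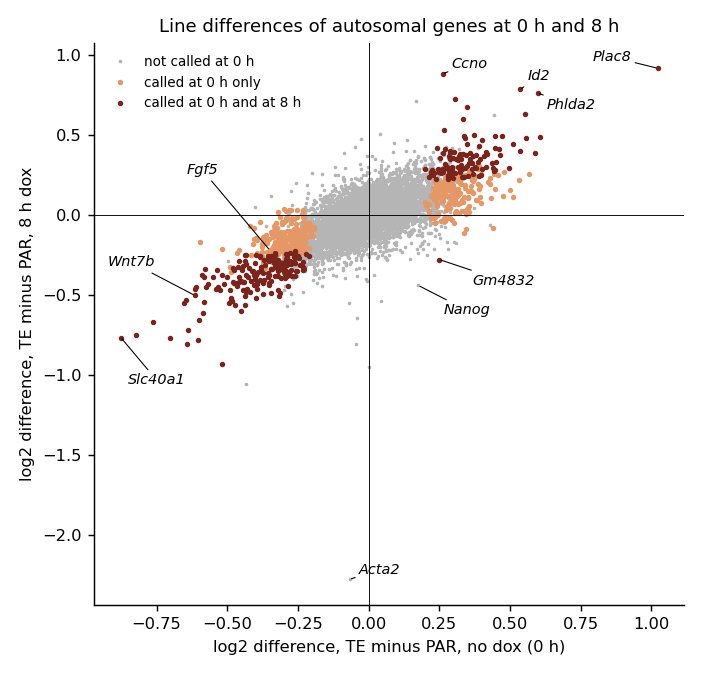
Log2 difference of Tcf15-E47 minus parental cells at 0 h (horizontal axis) and after 8 h of dox (vertical axis) for 8251 autosomal genes. Grey points were not called at 0 h, orange points were called at 0 h only and dark red points at both times. The called genes lie in the lower left and upper right, and Acta2 at the bottom rests on 1 parental array at 8 h.

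In 24 called genes the 8 h difference had the opposite sign, and 1 of them was called at 8 h. Gm4832 read 11.11 and 10.99 in untreated Tcf15-E47 cells, against 10.71 and 10.89 in untreated parental cells. It read 10.99 and 11.03 in Tcf15-E47 cells at 8 h, against 11.26 and 11.32 in parental cells at 8 h. Its difference was 0.25 at 0 h (limma adjusted p = 0.0422) and -0.28 at 8 h (limma adjusted p = 0.0322). Without replicate 2 of the parental cells at 8 h, the 8 h call was lost (limma adjusted p = 0.209) and 0 genes were called with opposite sign. The 0 h call of Gm4832 was kept in 4 of 12 alternative settings. Dst, Rbbp6, Slc20a1 and Uri1 had 8 h differences between -0.11 and -0.048, and none of these passed the test.

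A test of the change in line difference between 0 h and 8 h called 2 genes. Ccno, a cyclin of multiciliated cells, read 8.64 and 8.66 in Tcf15-E47 cells, against 8.45 and 8.32 in parental cells, at 0 h. It read 9.18 and 9.19 in Tcf15-E47 cells, against 8.30 and 8.30 in parental cells, at 8 h. Nanog, a core factor of naive pluripotency, read 11.04 and 11.09 in untreated Tcf15-E47 cells, against 10.93 and 10.85 in untreated parental cells, which did not pass the test (0.18, limma adjusted p = 0.0936). At 8 h Nanog was lower, at 10.62 and 10.65 in Tcf15-E47 cells, against 11.08 and 11.08 in parental cells. The second kept Nanog probe differed by -0.20 at 0 h, so the probes disagreed in sign. The change of the line difference was 0.62 for Ccno and -0.62 for Nanog (limma adjusted p = 0.0197 for each), with 0.0121% of tested genes called in each direction, 0.0242% in all, and 379 genes at an unadjusted p under 0.05. The calls were lost without either untreated Tcf15-E47 array, either Tcf15-E47 array at 8 h or replicate 2 of the parental cells at 8 h. Each such fit leaves 1 array in a group, so these losses do not show that a single array carried either change.

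Among the pluripotency genes, a few factors were lower in Tcf15-E47 cells. Pou5f1 and Sox2, core factors, differed by 0.06 and 0.10 (limma adjusted p = 0.681 and 0.506), but their other kept probes had the opposite sign, at -0.18 and -0.23. Of 15 naive pluripotency genes tested, 3 fell and 0 rose, beside 4.88% lower and 3.41% higher of all tested genes, with a median of -0.14 at 0 h and -0.089 at 8 h, beside a median of -0.00402 and -0.001 over all 8251 genes. Klf5, a naive factor, read 11.13 and 10.98 in Tcf15-E47 cells, against 11.57 and 11.71 in parental cells, a difference of -0.59 (limma adjusted p = 0.00167). Klf4, which LIF maintains, read 8.24 and 8.41 in Tcf15-E47 cells, against 8.70 and 8.70 in parental cells, a difference of -0.37 (limma adjusted p = 0.00768). Tbx3, a repressor of differentiation, differed by -0.34 (limma adjusted p = 0.0192). The 3 genes were called at 8 h too, with differences of -0.37 for Klf5, -0.40 for Klf4 and -0.48 for Tbx3. Without replicate 2 of the parental cells at 8 h these were -0.44, -0.34 and -0.45. The 8 h calls were lost there, in a fit that leaves 1 parental array at 8 h. Of 11 general pluripotency genes, Zfp296 and Dppa4 fell, with differences of -0.37 and -0.28, and 0 rose. Their other kept probes differed by less, at -0.08 for Zfp296 and between -0.17 and -0.047 for Dppa4. Several of these calls were lost with 1 array left out. That of Klf4 was lost without replicate 1 of the untreated Tcf15-E47 cells. Those of Tbx3 and Zfp296 were lost without Tcf15-E47 replicate 2 or parental replicate 1, and that of Dppa4 without replicate 2 of either line.

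Feedback genes of the FGF and ERK pathway, which ERK signalling switches on, were lower in 4 of 11 tested cases and higher in 0, with a median of -0.13 at both 0 h and 8 h. Of all tested genes, 4.88% were lower and 3.41% higher, with a median of -0.00402 at 0 h and -0.001 at 8 h. Dusp4 and Dusp6, phosphatases of ERK and its relatives, differed by -0.43 and -0.33 (limma adjusted p = 0.00169 and 0.025). Dusp4 read 8.60 and 8.59 in Tcf15-E47 cells, against 9.09 and 8.96 in parental cells, and kept its call with any 1 array left out. Phlda1 differed by -0.40 and Spred1, an inhibitor of the pathway, by -0.29 (limma adjusted p = 0.0198 and 0.0162). The 4 were called at 8 h as well, with differences between -0.39 and -0.31. Without replicate 2 of the parental cells at 8 h these were -0.35 for Dusp4, -0.26 for Phlda1, -0.22 for Dusp6 and -0.25 for Spred1. The 8 h calls were lost there, in a fit that leaves 1 parental array at 8 h. The 0 h calls of Phlda1 and Spred1 were lost without either untreated Tcf15-E47 array or parental replicate 1, and that of Dusp6 without Tcf15-E47 replicate 1 or either parental array. Etv4 and Etv5, transcription factors downstream of FGF, differed by 0.14 and -0.10 and did not pass the test. Immediate early genes were negative in 8 of 8 cases, with a median of -0.0897 at 0 h, and Ier3 (-0.46) and Dusp1 (-0.29) were called at both times. Their 8 h differences were -0.42 and -0.26, and -0.26 and -0.24 without replicate 2 of the parental cells at 8 h. The 8 h calls of Ier3 and Dusp1 were lost in that fit, which leaves 1 parental array at 8 h. At 0 h, the calls of Ier3 and Dusp1 were lost without replicate 2 of either line, and that of Dusp1 also without Tcf15-E47 replicate 1.

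Early lineage genes were in part below detection. Of 10 primitive endoderm genes tested, 3 fell and 0 rose, with a median of -0.18, beside 4.88% of all tested genes lower: Col4a1, a basement membrane collagen (-0.32), Sox7, an endoderm and endothelial transcription factor (-0.30), and Amn, a partner of an endocytic receptor (-0.26). The call of Amn was lost without any 1 of the 4 untreated arrays, that of Col4a1 without either Tcf15-E47 array or parental replicate 1, and that of Sox7 without Tcf15-E47 replicate 1 (limma adjusted p = 0.0679). The other kept probe of Sox7 differed by only -0.14. Of the 18 listed primitive endoderm genes, 10 were detected on both arrays of each untreated line, Gata6, Dab2, Lama1 and Sparc among them. Gata6 differed by -0.11 (limma adjusted p = 0.31). Gata4, Sox17, Pdgfra, Foxa2, Hnf4a, Cubn, Ttr and Afp were detected on no 0 h array. The summed signal of the 18 genes was 3929 and 3243 in Tcf15-E47 cells, against 4162 and 3653 in parental cells. These sums are not normalized and keep the background, and the lines overlap. The sum of the ES cell markers was also lower in replicate 2 of each line. It was 43885 and 36768 in Tcf15-E47 cells, against 38883 and 34381 in parental cells. The part of other cells in the differences of the primitive endoderm genes was not tested. In bulk samples, fewer cells of a type and less RNA per cell cannot be told apart. Otx2, an epiblast factor, differed by -0.01 (limma adjusted p = 0.934). Of 9 epiblast priming genes, Sox4 rose by 0.22 and Fgf5 fell, and 7 were not called. The call of Sox4 was lost without any 1 of the untreated arrays. Among 15 interferon response genes, Ifitm3, Gbp2b, Ifitm1 and Gbp2 fell, by 0.38, 0.32, 0.31 and 0.29 on the log2 scale, and 0 rose, with a list median of -0.091. The share of all tested genes that were lower was 4.88%. Gbp2b, a guanylate-binding protein, kept its call with any 1 array left out. The other 3 lost theirs without either Tcf15-E47 array, Ifitm1 and Ifitm3 also without parental replicate 1 and Gbp2 without parental replicate 2.

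Imprinted genes, which are expressed from 1 parental allele, changed in both directions. Of 22 tested, 5 rose and 2 fell, with a median of 0.0068 at 0 h and 0.0158 at 8 h, beside 3.41% higher and 4.88% lower of all tested genes. Besides Phlda2, Cdkn1c, a cell cycle inhibitor that neighbours it in an imprinted cluster of chromosome 7, read 11.30 and 11.23 in Tcf15-E47 cells, against 10.86 and 10.98 in parental cells. Its difference was 0.35 at 0 h (limma adjusted p = 0.0136) and 0.68 at 8 h (limma adjusted p = 0.000173). Dlk1, a non-canonical NOTCH ligand, read 8.77 and 8.60 in Tcf15-E47 cells, against 8.29 and 8.21 in parental cells, a difference of 0.44 (limma adjusted p = 0.0052). Grb10, a growth-limiting adaptor, rose by 0.23, and Dcn, a matrix proteoglycan that is also among the fibroblast markers and was detected on no untreated parental array, was at least 1.18-fold higher (limma adjusted p = 0.0192). The call of Dlk1 was lost without Tcf15-E47 replicate 1, and those of Cdkn1c and Dcn without either Tcf15-E47 array or parental replicate 1. Peg3, a zinc finger protein, and Impact, a regulator of translation, fell by 0.38 and 0.31 on the log2 scale. The other kept probe of Peg3 differed by only -0.041, and that of Dlk1 by 0.19. Other tested genes near Phlda2 and Cdkn1c on chromosome 7 were Slc22a18, Cd81, Tssc4, Ascl2 and Kcnq1ot1. They differed by between -0.16 and 0.065 at 0 h and were not called. At 8 h Cd81 was lower, with a difference of -0.36 (limma adjusted p = 0.013), and the others were not called.

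Among the remaining lists, calls were few, beside 8.29% of all tested genes called in either direction. No member was called for the WNT targets (9 tested), NODAL targets (6), DNA methylation genes (8), cadherins (10), p53 pathway (11), glycolysis (15) and cholesterol synthesis (10). Lists of this size are too small to set the lack of calls apart from that share. Phgdh, the first enzyme of serine synthesis, rose by 0.37, whereas Ddit4 and Asns, targets of the stress response, fell by 0.39 and 0.30 on the log2 scale. Pcna, the replication clamp, rose by 0.39 (limma adjusted p = 0.00486) and was not called at 8 h (0.17, limma adjusted p = 0.203). In the same list, Cdc20 was lower, with a difference of -0.20 (limma adjusted p = 0.0466). Srxn1 and Gpx1 of the redox list were lower too, with differences of -0.36 and -0.26. The calls of Cdc20, Srxn1 and Gpx1 were lost with neqc and under median scaling. Without Tcf15-E47 replicate 1, the 0 h calls of Pcna, Phgdh, Ddit4 and Asns were lost; those of Ddit4 and Asns were also lost without Tcf15-E47 replicate 2, and those of Phgdh and Asns without parental replicate 1.

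**Figure D4:**
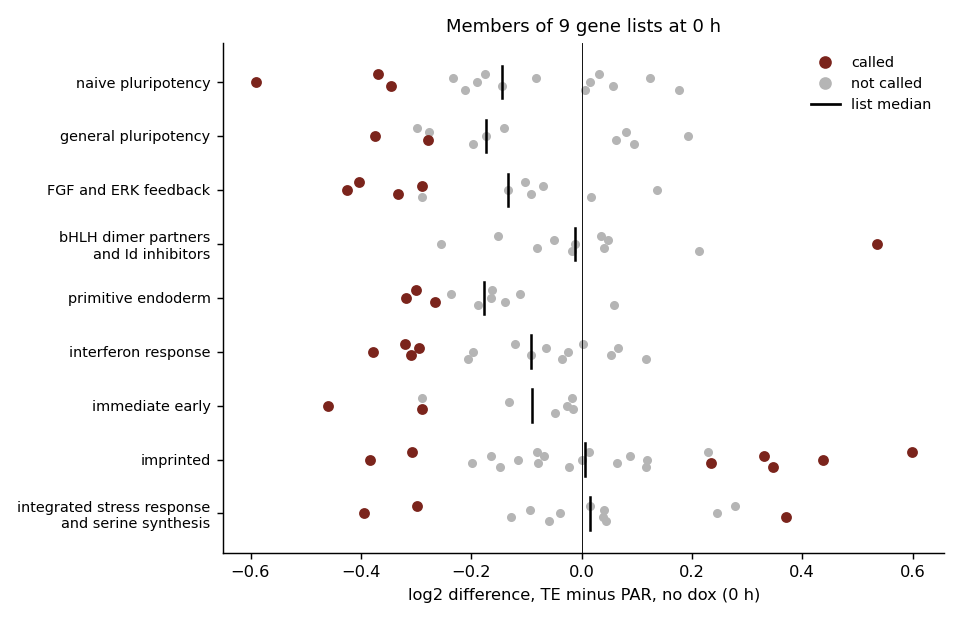
Log2 difference of untreated Tcf15-E47 minus untreated parental cells (horizontal axis) for each tested member of 9 gene lists (rows). Dark points were called at a limma adjusted p under 0.05, grey points were not, and black lines are list medians. The FGF and ERK feedback, primitive endoderm, interferon and immediate early lists hold called genes on the lower side only, and the imprinted list holds them on both sides.

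One chromosome stood apart from the other autosomes. Of the 297 tested genes of chromosome 14, 61 (20.5%) were lower and 2 were higher in untreated Tcf15-E47 cells, while the share of lower genes on the other autosomes was between 2.13% and 7.67%. The median difference of chromosome 14 was -0.0887 at 0 h and -0.082 at 8 h. The medians of the other 18 autosomes lay between -0.0109 and 0.0108 at 0 h, and between -0.0116 and 0.0168 at 8 h. At 8 h, 50 genes of chromosome 14 (16.8%) were lower, against 2.13% to 4.12% of genes elsewhere. Without chromosome 14, 279 genes were higher and 342 lower at 0 h.

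Within chromosome 14 the lower genes were neighbours. Windows of 30 neighbouring tested genes were moved in steps of 10 genes, so adjacent windows share genes and are not separate readings. On chromosome 14, 16 of the 27 windows had a lower median at 0 h than any window on another autosome, where the lowest was -0.0869. These 16 windows followed one another, which their overlap favours. All 16 were also below every window of the other autosomes at 8 h, where the lowest was -0.0706. Together they spanned 180 genes, from Ddhd1 to Obi1 in the gene order of GRCm38.p6, with a median of -0.16 at 0 h and -0.145 at 8 h. In that stretch 57 genes were lower at 0 h and 48 at 8 h, and 0 were higher at either time. Without either untreated Tcf15-E47 array 27 were lower at 0 h, and with any 1 array left out 17 to 29 were lower at 8 h. Without replicate 2 of the parental cells at 8 h the 8 h median of the stretch was -0.142 and 20 of its genes were lower. At 0 h the 100 tested genes before it had a median of -0.014 and the 17 after it -0.0225. At 8 h these medians were -0.0036 and -0.0713, so the end of the stretch at Obi1 was less sharp in those arrays. In consecutive blocks of 20 genes, the first block of the stretch, Ddhd1 to Ttc5, had a median of -0.0132, and the next, Parp2 to Slc7a7, had -0.16. The stretch was marked out after its values had been seen, so its 0 h values describe it, and the 8 h values come from other arrays.

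The difference was found on every Tcf15-E47 array. Relative to the mean of the parental arrays at 8 h, the median of the 180 genes was -0.15 and -0.15 on the untreated Tcf15-E47 arrays, against 0.0156 and -0.0016 on the untreated parental arrays. It was -0.15 and -0.14 at 8 h, -0.11 and -0.12 at 12 h, and -0.14 and -0.13 at 24 h of dox. With the background subtracted, the median of the stretch was -0.28 at 0 h and -0.27 at 8 h. Among its 35 genes with a mean over 9 log2 units, where background weighs least, it was -0.22 at 0 h and -0.28 at 8 h. DNA copy number was not measured here.

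Named genes of the stretch covered unrelated roles. Pbk, a mitotic kinase, read 9.06 and 9.05 in Tcf15-E47 cells, against 9.63 and 9.65 in parental cells, a difference of -0.58 (limma adjusted p = 0.00025). Dad1, a subunit of the complex that attaches N-glycans, read 10.52 and 10.59 in Tcf15-E47 cells, against 11.10 and 11.05 in parental cells, a difference of -0.53 (limma adjusted p = 0.000949). Chmp7, of the membrane-remodelling ESCRT complex, differed by -0.57 and Micu2, a regulator of mitochondrial calcium uptake, by -0.54. Second probes of Dad1, Micu2 and Chmp7 differed by less, at -0.031, -0.074 and -0.16. Klf5 and Sox7, described above, lie in the stretch. Bmp4, a growth factor that works with LIF in ES cells, differed by -0.31 (limma adjusted p = 0.0391). It lies in the first block of the stretch, as does Otx2, which did not pass the test. That block, Ddhd1 to Ttc5, had a median of -0.0132 at 0 h. The call of Bmp4 was kept in 6 of 12 alternative settings, and its difference lay between -0.40 and -0.22 across all 12. The call was lost with neqc, under median scaling, without the filter and with either untreated Tcf15-E47 array or parental replicate 1 left out.

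**Figure D5:**
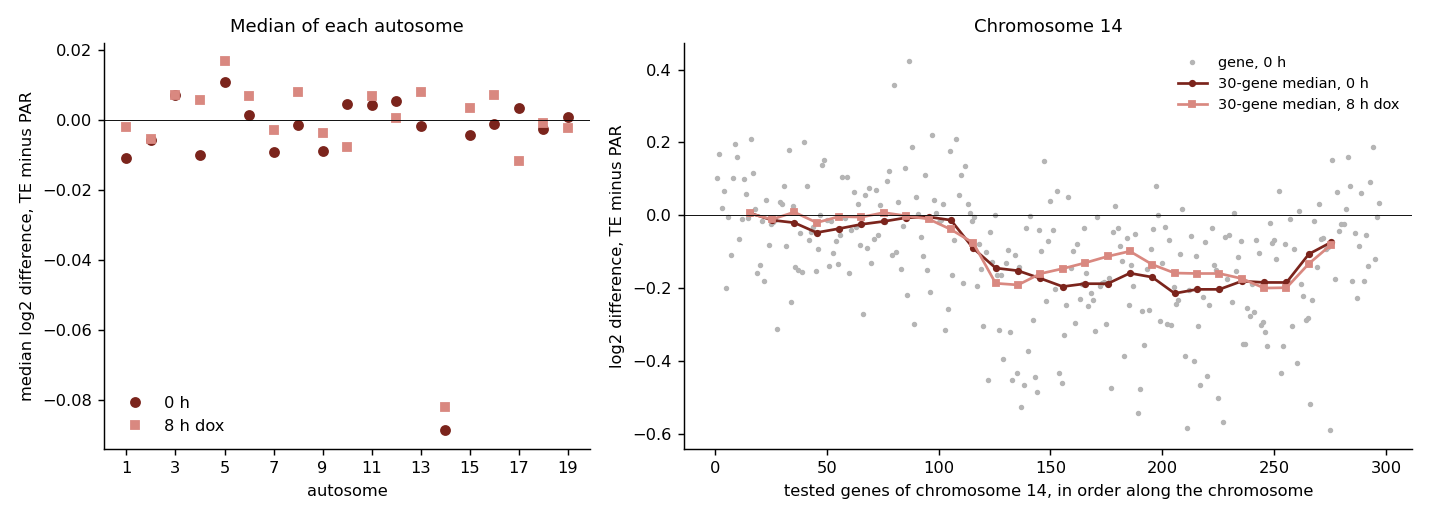
Left, median log2 difference of Tcf15-E47 minus parental cells (vertical axis) of the tested genes of each autosome (horizontal axis) at 0 h (dark circles) and 8 h of dox (light squares); right, the same difference for each tested gene of chromosome 14 in order (grey points, 0 h), with medians of 30-gene windows at 0 h and 8 h. Chromosome 14 lies at -0.0887 and -0.082, away from the other 18 autosomes, and the 16 windows of the stretch from Ddhd1 to Obi1 have medians of -0.2142 to -0.0905 at 0 h and -0.1996 to -0.0757 at 8 h.

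The authors' deposited table of this comparison runs parental minus Tcf15-E47, the opposite sign to the differences here. Turned round, the authors' deposited table calls 287 autosomal probes higher and 369 lower in Tcf15-E47 cells of 30884 probes tested, at their adjusted p under 0.05. In the authors' deposited table, Plac8 has a log2 value of -1.02. Some genes called at 0 h here are not called at that threshold in the authors' table. They include Dusp6, Phlda1, Dusp1, Col4a1, Amn, Ifitm3, Ifitm1, Zfp296, Bmp4 and Gm4832. From the same lists, Dusp4, Spred1, Ier3, Sox7, Gbp2b, Gbp2 and Dppa4 are called there.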

How the data were processed

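RNA of 12 samples, 2 for each of 6 groups, was read on Illumina BeadChip arrays. The deposited log2 values were processed by the authors with limma, version not given, per the submitters' processing notes, and they are quantile normalized without background subtraction, as the values show. The deposited table of signal intensity and detection p-value, per the file headers the average bead signal and its detection p-value, uses names that match 0 probes, so 17027 of its 30854 entries were matched to probes by value and each probe's signal was read from isotonic curves (scikit-learn 1.9.0). In 8543 held-out entries the log2 signal missed by a median of 9.27e-06. The deposited comparison table holds the authors' log2 fold changes and adjusted p-values per the file headers.

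Probes were named through the platform annotation and RefSeq (32093 with 1 gene, 16 with several, 6452 with none; 32035 matched by gene identifier). The kept probe with the highest mean stood for its gene, and unnamed probes were tested singly, giving 10093 features. limma 3.58.1 (R 4.3.3) fitted 6 group means over 12 arrays (lmFit, eBayes, two-sided), with Benjamini-Hochberg adjustment over all features and calls at adjusted p under 0.05. The number of arrays, 2 a group, limits the precision, and the median signal of 89.0 to 103.1 units lies close to background. The fit was tested on simulated data. The members, markers, gene lists (34) and tests were chosen with earlier results of these data known. Named genes are the 4 markers, 8 related factors, the 15 largest rises and falls with non-overlapping groups, genes with a changed or opposite 8 h difference, up to 4 called members of a list and the 5 largest on chromosome 14. Genes named beside them were chosen after their values were seen. Deviations of same-numbered replicates correlated at -0.0716 between the untreated groups and at -0.155 to 0.239 over all 15 pairs of groups, of which 0.181, 0.221 and 0.239 were among Tcf15-E47 groups (0 with 8 h, 0 with 24 h, 8 with 24 h). As not every pair was over 0.1, the fit has no block. The genome build of the probes is not given in the sources used here.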

Additional observations from a re-analysis of the deposited data

Results flagged for a closer look

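Ccno and Nanog stood out because their line difference changed between 0 h and 8 h of dox in a direct test over all 8 arrays of both times. The line difference of Ccno grew by 0.62 log2 units and that of Nanog was 0.62 lower at 8 h, a change of -0.62 (limma adjusted p = 0.0197 for each). With only the arrays compared in the fit, or with neqc, neither direction had a called gene. Without either untreated Tcf15-E47 array, either Tcf15-E47 array at 8 h, or replicate 2 of the parental cells at 8 h, 0 genes were called.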

How the results depend on the processing

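Under median scaling the balance of calls turned, with more higher than lower genes at 0 h and 8 h. The 281 higher and 403 lower genes at 0 h became 125 and 49 under median scaling, 156 and 225 with only the compared arrays in the fit, 1 and 0 at 2-fold or more, and 88 to 273 and 140 to 364 with 1 array left out. The 217 higher and 294 lower genes at 8 h became 109 and 169 with neqc, 104 and 54 under median scaling, and 35 to 92 and 83 to 140 with 1 array left out. The genes called for a changed line difference, 1 in each direction, became 0 and 0 with neqc or only the compared arrays, 4 lower under median scaling, and 0 to 6 higher and 0 to 9 lower with 1 array left out. The share with the same sign at 8 h, 96.5%, was 94.3% with neqc, 97.9% with only the compared arrays, and 92.3% to 97.9% with 1 array left out. The causes were not tested.

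The chromosome 14 stretch kept a negative median under every alternative. At 0 h and 8 h it was -0.2816 and -0.269 with neqc, -0.2839 and -0.2759 under median scaling, -0.1865 and -0.1615 with a stricter filter, -0.1389 and -0.1247 over every kept probe, and -0.1599 to -0.1383 and -0.1618 to -0.1362 with 1 array left out. Its lower genes numbered 6 and 7 under median scaling, 29 at 8 h with neqc, and 27 to 40 and 17 to 29 with 1 array left out. The median of the whole chromosome was -0.158 and -0.1519 with neqc, -0.1624 and -0.1548 under median scaling, -0.0236 and -0.021 without the filter, -0.1015 and -0.0976 with a stricter filter, -0.0703 and -0.074 over every kept probe, and -0.0993 to -0.0918 and -0.0884 to -0.0801 with 1 array left out. The counts without chromosome 14 and the stretch were chosen after seeing the data.

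Same-numbered deviations correlated over 0.1 among some Tcf15-E47 groups but not between the untreated lines (-0.0716), so the numbers were not taken to pair the arrays. With the replicate block, 297 genes were higher and 413 lower at 0 h, 216 and 299 at 8 h, and 1 and 1 for the changed difference. Of 76 named genes called at 0 h, 34 kept their call with each array left out, 39 under the other 8 settings, and 0 reversed. Of 407 list medians, 77 moved by more than the replicate spread and 47 turned sign; the HOX list had no gene left under the stricter filter. Signals near background limit dim genes.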

Other observations

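Some gene families, picked by the start of their symbols after their values had been seen, leaned to one side in both readings. Of 40 tested genes named Nduf (complex I of the respiratory chain), 32 were positive at 0 h and 32 at 8 h, with medians of 0.11 and 0.108, and 5 were called higher and 0 lower in untreated Tcf15-E47 cells. Of 40 genes named Cox, Uqcr or Atp5 (complexes III to V), 33 were positive at 0 h and 32 at 8 h, with medians of 0.12 and 0.098; 8 were called higher and 1 lower. Of 70 Mrpl and Mrps genes (mitochondrial ribosome), 40 were positive at 0 h and 49 at 8 h, with medians of 0.043 and 0.082; 11 were called higher and 2 lower. Cytosolic ribosomal proteins (54 Rpl and Rps genes) were positive in 35 cases at 0 h and 32 at 8 h, with medians of 0.028 and 0.029 and 1 called higher. All 5 Snhg genes, hosts of small nucleolar RNAs, were positive at both times, with medians of 0.34 and 0.15, and 3 were called higher at 0 h. Of all tested genes, 3.41% were called higher and 4.88% lower at 0 h. No test was made of these families. The median over all 8251 genes was -0.00402 at 0 h and -0.001 at 8 h.

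Of the 684 called genes, 295 had another kept probe, and in 64 of these at least 1 such probe had the opposite sign at 0 h.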
